A study of Rattus norvegicus with 10 samples.

Results

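Fatty acid uptake and oxidation is described here through 35 named genes that cover the route of a fatty acid from the cell surface to the respiratory chain. All 35 were found in the tissue count table and in both nuclear matrices, 34 by their own symbol and Acaa1a under its older symbol Acaa1. Of these, 34 passed the filter on low counts and were tested among 15216 genes of the 31580 in the table. Echs1, the short-chain enoyl-CoA hydratase, did not pass: it had 1 count in vehicle replicate 1 at 24 h and 0 in the other 7 tissue libraries, and no UMI in the nuclei, which allows up to 0.623 and 0.854 CPM in the cardiomyocyte-like nuclei of vehicle and BT2 (95% Poisson bounds).

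Rat hearts were injured by ligation and reperfusion of the left coronary artery, and RNA came from the area at risk, the territory that had been ischaemic. Rats received vehicle or the compound BT2, named in the labels by this code alone. Tissue RNA was sequenced at 4 h and at 24 h, with 2 libraries for each of vehicle at 4 h, BT2 at 4 h, vehicle at 24 h and BT2 at 24 h, and nuclei at 24 h as 1 vehicle and 1 BT2 library. All groups had the injury, the dose of 100 mg/kg is given for the nuclei alone, and the labels used here name no strain, age or sex. Sample titles count the hours from coronary ligation and the series text from the injury. The sources do not say whether libraries came from separate animals, so p-values measure only the spread between these samples, which may be technical.

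Fatty acids are the main fuel of the adult heart. They enter through transporters such as CD36, are joined to coenzyme A by acyl-CoA synthetases, and cross the inner mitochondrial membrane as carnitine esters, a step that malonyl-CoA inhibits at carnitine palmitoyltransferase 1. In the matrix, repeated dehydrogenation, hydration, dehydrogenation and thiolysis shorten the chain, and the electrons of the first step pass through the electron transfer flavoprotein to ubiquinone.

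The tissue libraries held between 10397310 and 24480984 counts, and log2 values of replicates correlated across genes at 0.987 to 0.994. All 13 cardiomyocyte markers, among them Ttn, Myh6 and Tnnt2, passed the filter on low counts. Summed over these markers, CPM (counts scaled to library size with TMM factors) was 88246 and 105012 in vehicle at 4 h, 97226 and 98084 with BT2 at 4 h, 32916 and 33505 in vehicle at 24 h, and in the BT2 pair of 24 h 71215 and 55651. Adipocyte markers (Adipoq, Plin1 and 4 others) summed to under 1 CPM in every library, and 1 of the 6 was at 0 in all. Macrophage and monocyte markers (11 genes) summed to 1190 and 1113 CPM in vehicle at 24 h against 592 and 702 with BT2, and to 361 to 455 CPM at 4 h. Neutrophil markers differed most between replicates, with 541 and 1720 CPM in vehicle at 4 h against 187 and 283 with BT2.

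The summed level of the fatty acid genes was lower in vehicle tissue at 24 h than in the other 3 groups. Their summed CPM was 13946 and 15462 in vehicle at 4 h, 15727 and 15086 with BT2 at 4 h, 6193 and 6193 in vehicle at 24 h, and in the BT2 pair of 24 h 13093 and 12899. At 24 h, 28 of the 34 tested genes were higher with BT2, where 18.9% of all genes tested were called higher, and 2 were lower, Acsl4 and Acsl5, where 20.7% of all genes were. The median log2 fold change was 1.05, against -0.0063 over all genes. Both BT2 libraries lay above both vehicle libraries for 31 genes, below them for 2, and only Acsl3 overlapped. The share of all genes whose groups do not overlap was not counted, so these counts have no background beside them. In bulk tissue, fewer cells of a type and less RNA per cell cannot be told apart, and the cardiomyocyte markers moved in the same direction, with 11 of 13 called higher and a median of 0.93. The part of that difference in the result was not tested, but scaling to the summed cardiomyocyte markers left 4 genes higher and 5 lower, where 344 of all 15216 genes were higher and 9962 lower, with a median of 0.14 against -0.92 over all genes. Schwann cell markers were also higher with BT2 at 24 h, 5 of 6 by the test with a median of 1.22, and the 2 mitochondrially encoded genes summed to a mean of 5338 CPM in vehicle and 7429 with BT2 at 24 h, against 12746 and 11300.1 at 4 h; the part of either in the result was not tested.

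**Figure D1:**
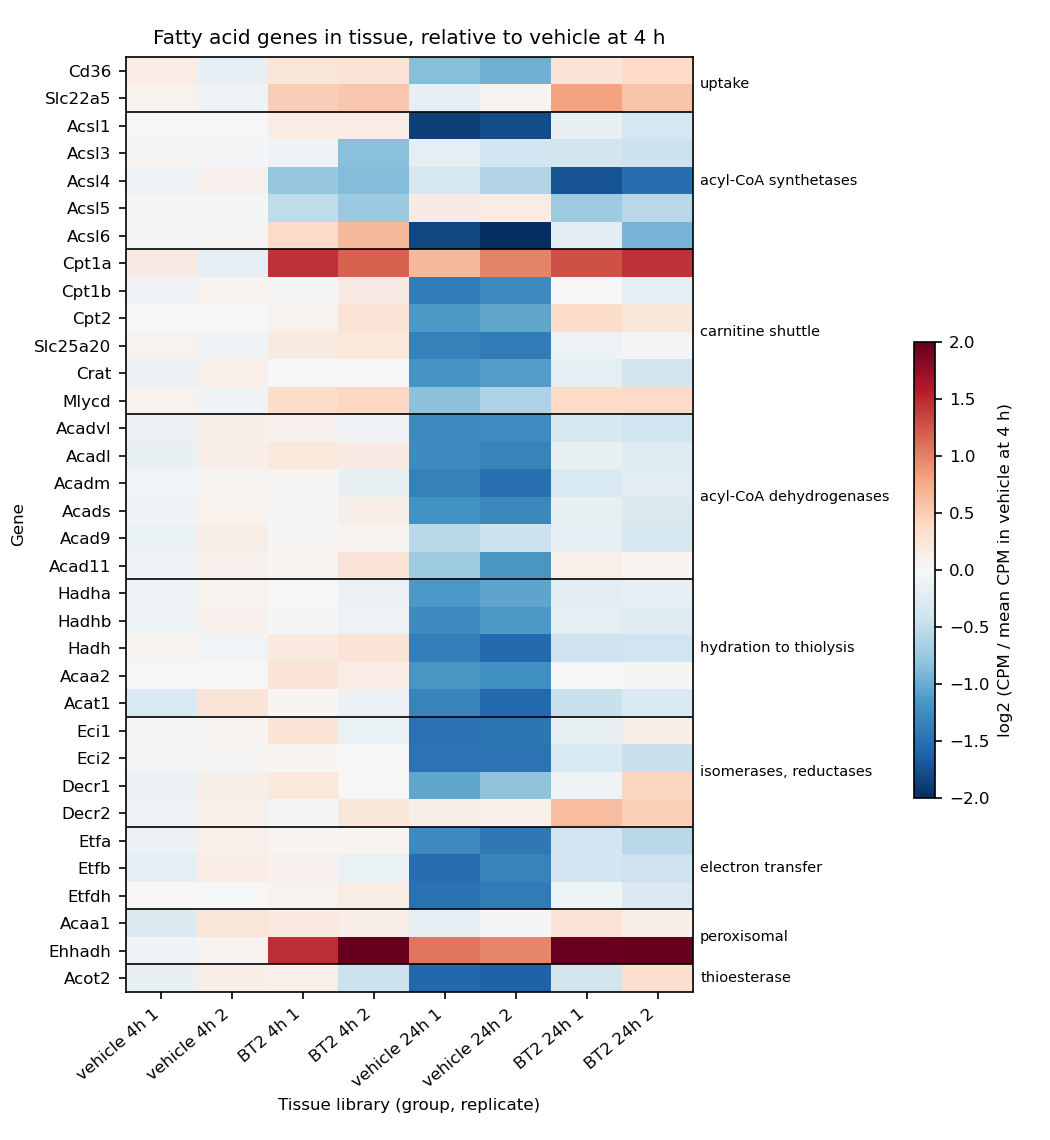
log2 CPM of the 34 tested genes in each of the 8 tissue libraries, relative to the mean of vehicle at 4 h, ordered by role (colour, blue lower and red higher, cut at 2 on either side). Vehicle at 24 h stands out as the low pair of columns, with summed CPM of 6193 in both libraries, while Cpt1a and Ehhadh run the other way and Acsl4 and Acsl5 are low in the BT2 columns.

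At 4 h fewer genes differed. With BT2, 4 of the 34 genes were higher (Cpt1a, Ehhadh, Slc22a5 and Mlycd), where 6.67% of all genes were called higher, and 2 were lower (Acsl4 and Acsl5), where 9.73% were called lower. The median was 0.095 against 0.0034 over all genes. The groups overlapped for 18 genes, a count that also has no background over all genes. Cpt1a was called in each of the 8 fits that left out 1 library, and Ehhadh, Acsl4 and Acsl5 in 6 of 8. Mlycd was called in 1 of 8, without vehicle replicate 1 at 4 h (adjusted p = 0.0436 with edgeR), and Slc22a5 in 0 of 8 (adjusted p from 0.0544 to 0.205). Without vehicle replicate 2 or without BT2 replicate 2 at 4 h, 1 library was left in that group. Calls then became fewer among the 34 genes and over all genes alike. The median of the 34 genes was 0.16 and 0.078 in these fits, against 0.012 and -0.0079 over all genes. Leaving out replicate 1 of vehicle or of BT2 at 4 h also left 1 library. Without vehicle replicate 1 the median of the 34 genes was 0.0008, against 0.008 over all genes. Without BT2 replicate 1 these medians were 0.12 and -0.0048. Neutrophil markers also differed at 4 h, with 4 of 6 lower with BT2 and wide spread between the vehicle libraries; their part in these results was not tested.

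**Figure D2:**
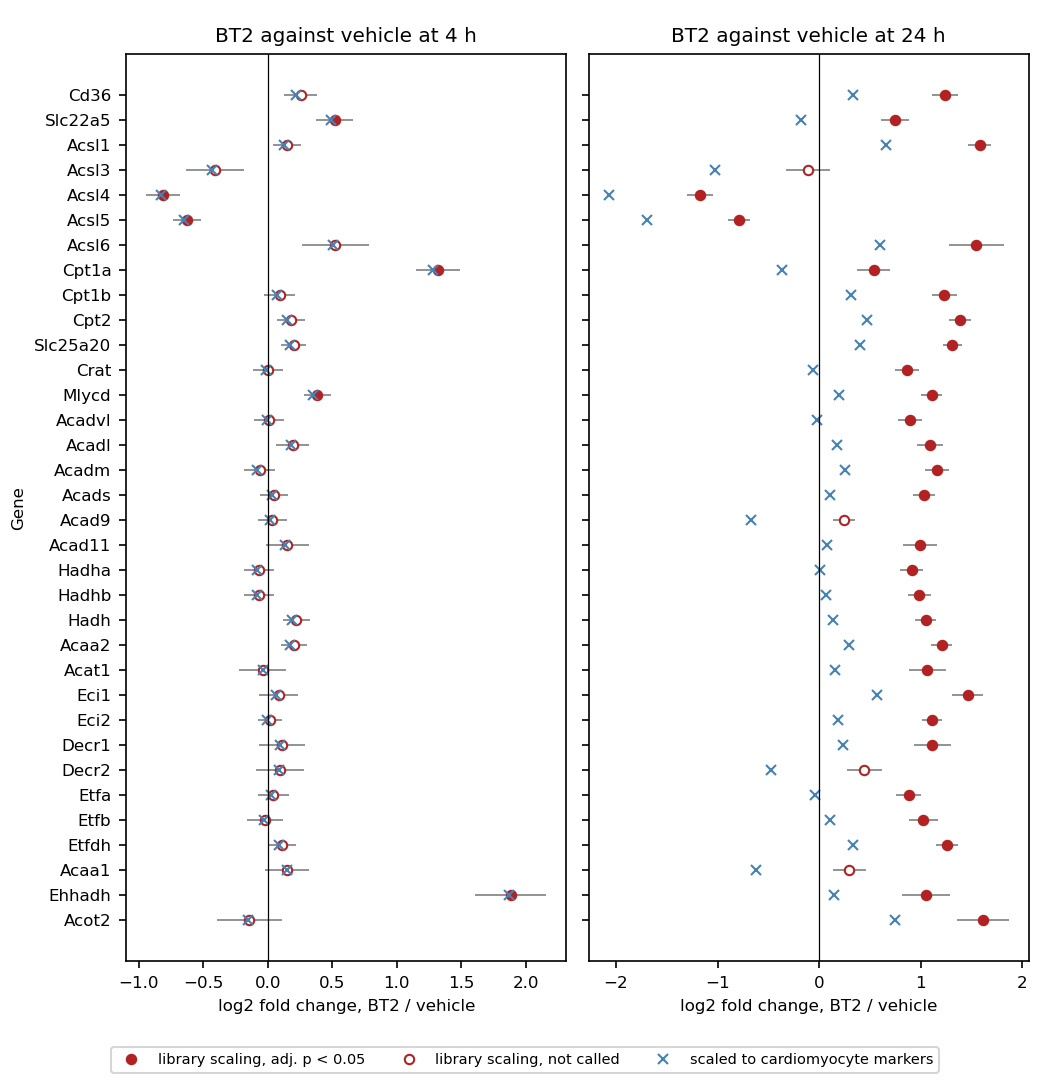
log2 fold change of BT2 over vehicle for each gene at 4 h (left) and 24 h (right), with bars of 1 standard error; filled circles passed the test, open circles did not, and crosses are the values scaled to cardiomyocyte markers. Circles and crosses nearly coincide at 4 h, while at 24 h the circles centre on 1.05 and the crosses on 0.14.

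Sequences before the start sites are shown for 3 genes. Hadha and Acadvl fell over time in vehicle tissue, as most members did, and Cpt1a rose. RefSeq (build GRCr8) gave windows of 300 bases, 250 before and 50 after the start, for 31 of the 35 genes; none was listed for Cpt1b, Acaa2, Decr1 and Acadl. Hadha (chr6:31907551-31907850, plus strand) and Hadhb (chr6:31907451-31907750, minus strand) are transcribed away from each other and share 200 bases of their windows, which are in capitals in the Hadha line. Acadvl (chr10:55236656-55236955, minus strand) held 2 copies of AGGTCA, the nuclear receptor half-site, in capitals. Cpt1a (chr1:209995910-209996209, plus strand), the gene whose 4 h call held in all 8 fits that left out 1 library, held none.
Hadha: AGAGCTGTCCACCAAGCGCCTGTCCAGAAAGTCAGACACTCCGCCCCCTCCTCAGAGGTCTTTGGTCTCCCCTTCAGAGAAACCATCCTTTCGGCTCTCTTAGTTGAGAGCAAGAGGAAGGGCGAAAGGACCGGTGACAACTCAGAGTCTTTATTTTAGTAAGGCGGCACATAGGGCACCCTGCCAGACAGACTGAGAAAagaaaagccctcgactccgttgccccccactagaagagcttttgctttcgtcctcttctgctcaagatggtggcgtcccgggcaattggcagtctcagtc
Acadvl: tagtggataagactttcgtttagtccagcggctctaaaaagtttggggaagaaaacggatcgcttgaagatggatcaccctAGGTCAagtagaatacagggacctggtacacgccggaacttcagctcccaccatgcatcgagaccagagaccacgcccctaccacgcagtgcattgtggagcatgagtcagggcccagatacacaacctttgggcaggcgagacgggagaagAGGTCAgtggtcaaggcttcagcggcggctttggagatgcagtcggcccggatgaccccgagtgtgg
Cpt1a: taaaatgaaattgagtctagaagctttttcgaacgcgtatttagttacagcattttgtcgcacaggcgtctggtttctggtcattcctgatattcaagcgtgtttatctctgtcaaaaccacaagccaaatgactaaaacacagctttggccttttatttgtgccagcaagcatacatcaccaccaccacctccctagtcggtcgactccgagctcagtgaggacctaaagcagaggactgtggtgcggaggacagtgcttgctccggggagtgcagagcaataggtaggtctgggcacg
The direct repeat AGGTCANAGGTCA, the consensus site of PPAR with RXR, was in 0 of the 31 windows on either strand and in 0.0538% of the 33469 windows in the table. Only exact copies were counted, so AGGTCAgtggtca in the Acadvl line, which departs from the repeat at 1 base, was not. TNAAGGTCA, the site of oestrogen-related receptors, was in 0 of 31 and in 1.20% of all windows. The half-site AGGTCA, which both longer motifs contain, was searched after these values were seen; it was in 6 of 31 (Acad11, Acadvl, Echs1, Eci1, Eci2 and Hadhb), or 19.4%, against 16.2% of all windows. A match is a description of the letters, and no match says only that these letters are not in this window.

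Of the uptake genes, Cd36, which carries long-chain fatty acids across the plasma membrane, had 560.2 and 451 CPM in vehicle at 4 h, 596 and 611 with BT2 at 4 h, 279 and 261 in vehicle at 24 h, and in the BT2 pair of 24 h 607 and 666. Only the 24 h vehicle libraries were low, and at both times BT2 and vehicle did not overlap. Cd36 was 2.36-fold higher with BT2 at 24 h (log2 1.24, SE 0.13, adjusted p = 0.000695, edgeR quasi-likelihood test with Benjamini-Hochberg adjustment, as for all tissue tests below), and at 4 h the log2 fold change was 0.25 (SE 0.13, adjusted p = 0.202). Slc22a5, the OCTN2 carnitine transporter, had 14.5 and 13.0 CPM in vehicle at 4 h, 19.3 and 19.9 with BT2 at 4 h, 12.3 and 14.2 in vehicle at 24 h, and in the BT2 pair of 24 h 23.9 and 20.5. Both BT2 pairs lay above both vehicle pairs, and the vehicle pairs of 4 h and 24 h overlapped. It was 1.43-fold higher at 4 h (SE 0.14 in log2, adjusted p = 0.0442 with edgeR) and 1.68-fold higher at 24 h (log2 0.75, SE 0.14, adjusted p = 0.00429). Scaled to cardiomyocyte markers, the 24 h log2 value of Slc22a5 was -0.18 and that of Cd36 0.33, neither called.

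The long-chain acyl-CoA synthetases divided. Acsl1, the main synthetase of heart muscle, had 989 and 989 CPM in vehicle at 4 h, 1097 and 1099 with BT2 at 4 h, 269.8 and 288 in vehicle at 24 h, and in the BT2 pair of 24 h 889.8 and 779. It had the smallest p of the 34 genes at 24 h, when it was 2.99-fold higher with BT2 (log2 1.58, SE 0.11, adjusted p = 0.000331 with edgeR), and it remained higher when scaled to cardiomyocyte markers (log2 0.66, adjusted p = 0.000679). Acsl6 rose 2.92-fold at 24 h (adjusted p = 0.00394 with edgeR), from 6.14 and 3.98 CPM in vehicle to 18.5 and 11.3 with BT2.
Acsl4, which favours arachidonic acid and supplies the polyunsaturated acyl chains of phospholipids, had 76.9 and 87.2 CPM in vehicle at 4 h, 48.8 and 44.8 with BT2 at 4 h, 65.5 and 54.8 in vehicle at 24 h, and in the BT2 pair of 24 h 24.8 and 28.6. BT2 was below vehicle without overlap at both times, at 0.569-fold of vehicle at 4 h (log2 -0.81, SE 0.13, adjusted p = 0.0116 with edgeR) and 0.444-fold at 24 h (log2 -1.17, SE 0.13, adjusted p = 0.000857). The 4 h call was lost without vehicle replicate 2 at 4 h (adjusted p = 0.0578) and without BT2 replicate 2 at 4 h (adjusted p = 0.0704).
Acsl5, a synthetase of mitochondria and endoplasmic reticulum, had 83.1 and 80.8 CPM in vehicle at 4 h, 57.5 and 49.0 with BT2 at 4 h, 91.7 and 91.3 in vehicle at 24 h, and in the BT2 pair of 24 h 50.2 and 55.5. It too was lower with BT2 at both times, at 0.649-fold of vehicle at 4 h (log2 -0.62, SE 0.11, adjusted p = 0.0132 with edgeR) and 0.578-fold at 24 h (log2 -0.79, SE 0.11, adjusted p = 0.00141). The same 2 libraries decided its 4 h call (adjusted p = 0.056 and 0.0743 without them). Of the 11 macrophage and monocyte markers, 7 were lower with BT2 at 24 h by the test and 1 was higher. At 4 h 3 were lower and 0 higher, but 6 of the 11 had a positive log2 value and the median was 0.0069. The part of these markers in the falls of Acsl4 and Acsl5 was not tested. Macrophage and monocyte-like nuclei were 17.2% of vehicle and 11.7% of BT2 nuclei at 24 h. Acsl3, the lipid droplet synthetase, was not called in either comparison, with log2 values of -0.41 at 4 h and -0.11 at 24 h.

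**Figure D3:**
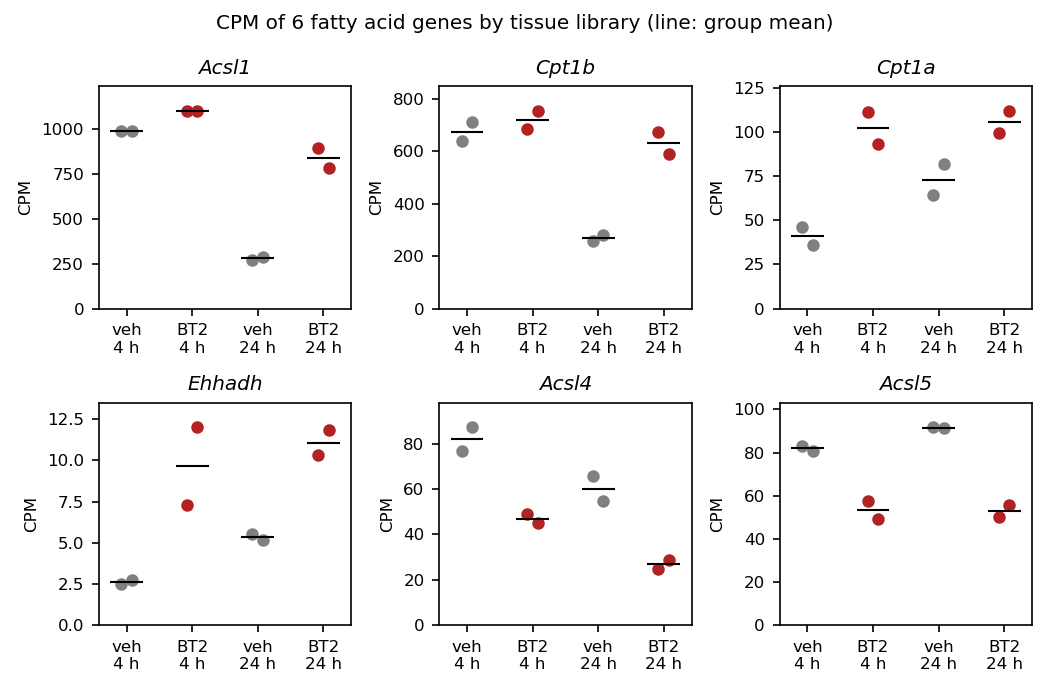
CPM of 6 genes in each tissue library (points; line, group mean; vertical axis from 0, grey vehicle, red BT2). Acsl1 and Cpt1b are low in vehicle at 24 h alone, Cpt1a and Ehhadh are lowest in vehicle at 4 h (Ehhadh 2.50 and 2.73 CPM), and Acsl4 and Acsl5 are lower with BT2 at both times.

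In the carnitine shuttle all 6 genes were higher with BT2 at 24 h. Cpt1b, the muscle form of carnitine palmitoyltransferase 1 and the gate to the mitochondrion, had 639 and 709 CPM in vehicle at 4 h, 685 and 753 with BT2 at 4 h, 255 and 280.1 in vehicle at 24 h, and in the BT2 pair of 24 h 673 and 587. It was 2.35-fold higher at 24 h (log2 1.23, SE 0.12, adjusted p = 0.000655 with edgeR) and had overlapping groups at 4 h (log2 0.093, adjusted p = 0.634). Cpt1b lies beside Chkb in the genome, so reads may be shared between them.
Cpt1a, the form typical of liver and of the fetal heart, behaved differently, with 46.0 and 36.2 CPM in vehicle at 4 h, 112 and 93.2 with BT2 at 4 h, 64.2 and 81.9 in vehicle at 24 h, and in the BT2 pair of 24 h 99.6 and 112. Vehicle at 4 h was the lowest pair, and BT2 lay above vehicle at both times. Cpt1a was 2.50-fold higher with BT2 at 4 h (log2 1.32, SE 0.17, adjusted p = 0.00954 with edgeR) and 1.45-fold higher at 24 h (log2 0.54, SE 0.16, adjusted p = 0.0316). The 24 h call was lost without vehicle replicate 1 (adjusted p = 0.198) or BT2 replicate 1 (0.0755) or BT2 replicate 2 (0.141) of that time, and with library totals alone (0.0864), and its value turned to -0.36 when scaled to cardiomyocyte markers; at 4 h that scaling gave 1.28 (adjusted p = 0.00226).
Slc25a20, the carnitine-acylcarnitine carrier, had 240.4 and 217 CPM in vehicle at 4 h, 260.3 and 266 with BT2 at 4 h, 89.6 and 86.6 in vehicle at 24 h, and in the BT2 pair of 24 h 213 and 225. It was 2.49-fold higher with BT2 at 24 h (log2 1.31, SE 0.097, adjusted p = 0.000331 with edgeR). Cpt2, which returns the acyl group to coenzyme A in the matrix, had 215 and 214 CPM in vehicle at 4 h, 225 and 260.0 with BT2 at 4 h, 97.0 and 105 in vehicle at 24 h, and in the BT2 pair of 24 h 276 and 251, and was 2.62-fold higher at 24 h (log2 1.39, SE 0.11, adjusted p = 0.000344). Like Acsl1, Cpt2 remained higher when scaled to cardiomyocyte markers (log2 0.47, adjusted p = 0.0245), whereas Slc25a20 was at 0.41 (adjusted p = 0.0632). Mlycd, malonyl-CoA decarboxylase, which removes the inhibitor of the shuttle, had 133 and 120.4 CPM in vehicle at 4 h, 162 and 168 with BT2 at 4 h, 71.4 and 82.3 in vehicle at 24 h, and in the BT2 pair of 24 h 166 and 166. BT2 was above vehicle at both times, 1.31-fold at 4 h (SE 0.10 in log2, adjusted p = 0.0402 with edgeR) and 2.16-fold at 24 h (SE 0.10, adjusted p = 0.000555). Crat, carnitine acetyltransferase, was 1.82-fold higher at 24 h and at 0.0034 on the log2 scale at 4 h.

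Of the 6 acyl-CoA dehydrogenases, which make the first double bond and differ in the chain length they accept, 5 were higher with BT2 at 24 h and 0 were called at 4 h, with 0 also at an unadjusted p under 0.05. Acadm, the medium-chain enzyme, had 1070.4 and 1162 CPM in vehicle at 4 h, 1133 and 1006 with BT2 at 4 h, 436 and 392 in vehicle at 24 h, and in the BT2 pair of 24 h 903 and 949.9. The 4 h groups overlapped, and at 24 h Acadm was 2.24-fold higher with BT2 (log2 1.16, SE 0.12, adjusted p = 0.000681 with edgeR). Acadl, Acadvl, Acads and Acad11 had log2 fold changes of 0.90 to 1.09 at 24 h. Acad9, better known as an assembly factor of respiratory complex I, was the exception, at 0.25 (adjusted p = 0.107).

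The core of the spiral showed the same order. All 5 tested genes (Hadha, Hadhb, Hadh, Acaa2 and Acat1) were higher with BT2 at 24 h and 0 were called at 4 h, with 0 at an unadjusted p under 0.05. Hadha, the hydratase and dehydrogenase subunit of the trifunctional protein, had 1035 and 1151 CPM in vehicle at 4 h, 1093 and 993 with BT2 at 4 h, 493 and 525 in vehicle at 24 h, and in the BT2 pair of 24 h 938 and 977. It was 1.88-fold higher at 24 h (log2 0.91, SE 0.11, adjusted p = 0.00114 with edgeR). Hadhb, the thiolase subunit encoded beside it, was 1.98-fold higher (log2 0.99, SE 0.12), and at 4 h the pair stood at -0.068 and -0.065. Scaled to cardiomyocyte markers, the 24 h values of Hadha and Hadhb were 0.0044 and 0.073.

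Among the enzymes that deal with double bonds of unsaturated acids, Eci1, Eci2 and Decr1 were higher with BT2 at 24 h by log2 1.47, 1.11 and 1.12, and the peroxisomal reductase Decr2 was at 0.45 (adjusted p = 0.068 with edgeR). Eci1 remained higher when scaled to cardiomyocyte markers (log2 0.57, adjusted p = 0.0194). All 3 electron transfer genes were higher at 24 h: Etfa by 0.88, Etfb by 1.03 and Etfdh by 1.26. Etfdh, the membrane enzyme that passes the electrons to ubiquinone, had 445 and 442 CPM in vehicle at 4 h, 465 and 494 with BT2 at 4 h, 158 and 168 in vehicle at 24 h, and in the BT2 pair of 24 h 416 and 364, a 2.40-fold difference at 24 h (SE 0.11 in log2, adjusted p = 0.000393 with edgeR).

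Ehhadh, the peroxisomal bifunctional enzyme and a classical PPAR-alpha target in liver, had few counts in every library. It had 2.50 and 2.73 CPM in vehicle at 4 h, 7.29 and 12.0 with BT2 at 4 h, 5.52 and 5.18 in vehicle at 24 h, and in the BT2 pair of 24 h 10.4 and 11.8. As with Cpt1a, vehicle at 4 h was lowest and BT2 lay above vehicle at both times, 3.69-fold at 4 h (log2 1.88, SE 0.28, adjusted p = 0.0109 with edgeR) and 2.07-fold at 24 h (log2 1.05, SE 0.24, adjusted p = 0.00991). The 4 h call moved to adjusted p = 0.052 without vehicle replicate 2 and 0.0517 without BT2 replicate 2, and the 24 h call to 0.0505 and 0.0665 without vehicle replicates 1 and 2 and to 0.0521 without BT2 replicate 2. Acaa1, the peroxisomal thiolase, was not called at either time (log2 0.15 and 0.30); its near-identical copy Acaa1b makes the value uncertain. Acot2, the mitochondrial thioesterase that frees fatty acids from coenzyme A, had 181 and 218 CPM in vehicle at 4 h, 214 and 148 with BT2 at 4 h, 67.3 and 64.8 in vehicle at 24 h, and in the BT2 pair of 24 h 154 and 250.7. It had the largest log2 fold change of the 34 genes at 24 h, 1.61 (SE 0.26, adjusted p = 0.00302 with edgeR), with a wide spread between the BT2 replicates and a near-identical neighbour, Acot1.

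The effect of BT2 was larger at 24 h than at 4 h for 22 of the 34 genes by the test of the difference itself, where 4.72% of all genes were called higher, and smaller for 0, where 2.43% of all genes were called lower. At an unadjusted p under 0.05, 1 gene was lower, Cpt1a (log2 -0.79, adjusted p = 0.0798 with edgeR). DESeq2 called 1 lower, where 581 of 13151 genes were. The count of 22 depended on single libraries: 0 were left without vehicle replicate 1 or without vehicle replicate 2 at 24 h, 1 without BT2 replicate 1 at 24 h, 5 without BT2 replicate 2 and 9 without BT2 replicate 1 at 4 h, and 14 without vehicle replicate 2 at 4 h, while the median of the 34 differences stayed between 0.85 and 1.02. Over all genes, these counts were 718 with all libraries, 41 and 0 without vehicle replicate 1 and 2 at 24 h, 19 without BT2 replicate 1 at 24 h, 86 without BT2 replicate 2 and 223 without BT2 replicate 1 at 4 h, and 296 without vehicle replicate 2 at 4 h. Scaled to cardiomyocyte markers, 1 gene was higher and 6 were lower, where 112 of all 15216 genes were higher and 7273 lower.

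Over time in vehicle tissue, 27 of the 34 genes fell between 4 h and 24 h, where 23.8% of all genes were called lower, and 2 rose, where 23.3% were called higher. The median was -1.20 against 0.0055 over all genes. These values share the vehicle libraries with both BT2 comparisons. Acsl6 (log2 -2.09), Acsl1 (-1.83) and Acot2 (-1.59) had the lowest values, and the 2 that rose were Cpt1a (0.83, adjusted p = 0.00455 with edgeR) and Ehhadh (1.02, adjusted p = 0.0165). The Ehhadh call was lost without any 1 of the 4 vehicle libraries, with adjusted p from 0.0502 to 0.0645. Acsl4 fell by 0.45 (adjusted p = 0.0207), but not without vehicle replicate 2 at 4 h (0.111) or at 24 h (0.157). The cardiomyocyte markers fell too, 12 of 13 by the test with a median of -1.38, and their part in the fall was not tested. Scaled to their sum, 17 genes were higher at 24 h and 0 lower, where 12569 of all 15216 genes were higher and 211 lower, with a median of 0.33 against 1.54 over all genes. The members' summed CPM as a percent of the markers' summed CPM was 15.8 and 14.7 in vehicle at 4 h, 16.2 and 15.4 with BT2 at 4 h, 18.8 and 18.5 in vehicle at 24 h, and in the BT2 pair of 24 h 18.4 and 23.2.

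Over time in BT2 tissue, 6 genes fell (Acsl1, Acsl4, Acsl6, Hadh, Eci2 and Etfa), where 11.6% of all genes were called lower, and 0 rose, where 11.7% were called higher. At an unadjusted p under 0.05, 1 gene rose, Decr2 (log2 0.45, adjusted p = 0.0965 with edgeR). DESeq2 called 0 higher, where 1546 of 14626 genes were. The median was -0.19 against 0.020 over all genes. Acsl4 fell by 0.81 and Hadh, the medium- and short-chain hydroxyacyl-CoA dehydrogenase, by 0.63, and both were called in all 8 fits without 1 library. Leaving out BT2 replicate 1 or 2 of 4 h or BT2 replicate 2 of 24 h left 1 library in that group. Lower calls then became fewer among the fatty acid genes and over all genes alike. The median of the fatty acid genes was -0.16, -0.25 and -0.20 in these fits, against 0.033, 0.029 and 0.0096 over all genes. Without BT2 replicate 1 at 24 h, lower calls became fewer over all genes alone. Without either vehicle library of 24 h they became fewer in both sets, and without either vehicle library of 4 h more in both.

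Of 41 further genes of fatty acid handling, 38 were tested. With BT2 at 24 h, 27 were higher and 3 lower, where 18.9% and 20.7% of all genes were, with a median of 0.80. In each list the 2 called genes with the smallest p are named, which need not have the largest change. Of 8 uptake and binding genes 5 were higher, among them Fabp3, the cytosolic fatty acid carrier of heart muscle (log2 1.59), and Lpl, which releases fatty acids from lipoproteins (1.31), and 2 were lower. Of 7 lipid droplet and ester genes 4 were higher, among them Plin5, which ties droplets to mitochondria (1.70), and the monoglyceride lipase Mgll (1.10). Acacb, which makes the malonyl-CoA that restrains the shuttle, was also higher, by 1.49 (adjusted p = 0.000344 with edgeR). Of 7 further mitochondrial genes 6 were higher, among them the isomerase Ech1 (1.81) and the acetyl-CoA synthetase Acss1 (1.64), and 1 was lower. Of 9 peroxisomal genes 6 were higher, among them Hsd17b4 (0.84) and Scp2 (1.10), and all 5 ketone body and carnitine synthesis genes were, among them Aldh9a1 (0.64) and Oxct1 (0.82). The 3 lower genes were Fabp5 (-1.19), Slc27a4 (-1.09) and Acot7 (-0.36), named after their values were seen.

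At 4 h, 2 of the 38 were higher with BT2, the peroxisomal transporter Abcd3 (0.42) and the racemase Amacr (0.67), and 2 lower, the lipid droplet coat gene Plin2 (-1.18) and the ketone body enzyme Bdh1 (-0.77); both counts are below the 6.67% and 9.73% of all genes called. The effect was larger at 24 h for 16, where 4.72% of all genes were, among them Fabp3 (1.64), Lpl (1.09), Plin5 (1.68), Mgll (1.21), Acacb (1.20), Ech1 (1.56), Acot13 (1.41), Scp2 (1.04), Hsd17b4 (0.76), Bdh1 (1.36) and Oxct1 (0.85), and smaller for 1, Fabp5 (-1.28), where 2.43% of all genes were. Over time in vehicle, 21 fell and 3 rose, where 23.8% and 23.3% of all genes did. Among those with the smallest p of their lists were Fabp3 (-2.43), Lpl (-1.84), Plin5 (-2.16), Dgat1 (-0.97), Acacb (-1.64), Acss1 (-2.01), Acot13 (-1.98), Scp2 (-0.93), Oxct1 (-1.54) and Bdh1 (-1.68), and the 3 that rose were Slc27a4 (1.64), Fabp5 (1.31) and Crot (0.75). Over time in BT2, 8 fell and 6 rose, where 11.6% and 11.7% of all genes did. Slc27a4 (1.15), Lipe (0.49), Gpam (0.66) and Nudt7 (0.73) were among those that rose, and Fabp3 (-0.79), Acacb (-0.44), Acss1 (-0.73), Abcd3 (-0.45), Oxct1 (-0.69) and Aldh9a1 (-0.45) among those that fell.

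Nuclei gave another reading. The vehicle library kept 11372 of 11540 barcodes and the BT2 library 10324 of 10497, and 37 barcodes occurred in both. Nuclei were clustered without the fatty acid genes, and the cluster with the cardiomyocyte markers Ttn and Ryr2 among its leading genes held 806 nuclei in each library, 7.09% of vehicle nuclei (95% exact interval 6.62 to 7.57) and 7.81% of BT2 nuclei (7.30 to 8.34). With 1 library per group there is no test, and intervals cover counting error only. In these cardiomyocyte-like nuclei the 35 genes summed to 2561 CPM (here UMIs scaled to the class total) in vehicle (95% Poisson interval 2520 to 2602) and 1829 with BT2 (1789 to 1870), a ratio of 0.714 (0.695 to 0.734), while the cardiomyocyte markers stood at a ratio of 1.16. Over all nuclei the ratio was 0.856 (0.845 to 0.867), but the mix of classes differed between the libraries. Fibroblast-like nuclei, at 999 and 967 CPM, were 14.0% of vehicle and 28.9% of BT2 nuclei. Unnamed nuclei held 33.4% and 17.4% of the UMIs of the 35 genes, and 35.8% and 16.8% of all UMIs. Their own ratio was 0.951. The other named classes had ratios of 0.883 to 1.07. The median depth of cardiomyocyte-like nuclei differed, 6348.5 UMIs in vehicle and 3474 with BT2. Nuclei under 5000 UMIs gave a ratio of 0.829 and those of 5000 or more 0.680, a split chosen after the depths were seen; the part of depth in the ratio was otherwise not tested. The direction is opposite to that in tissue, where RNA of whole cells was measured in other libraries.

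**Figure D4:**
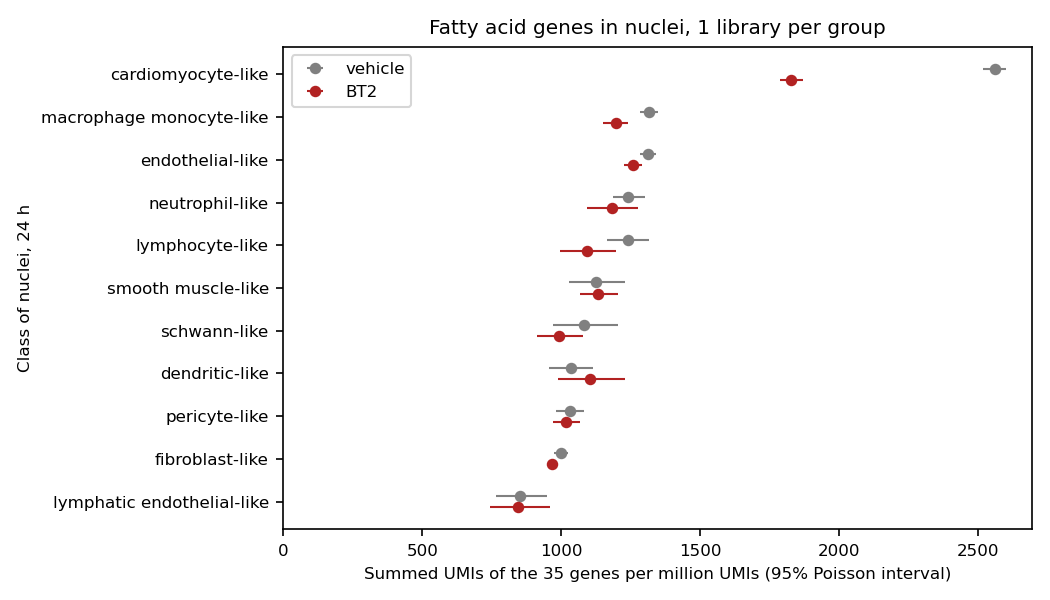
Summed CPM of the 35 genes in each class of nuclei at 24 h (grey vehicle, red BT2; bars, 95% Poisson intervals; horizontal axis from 0). Cardiomyocyte-like nuclei are highest in both libraries, 2561 and 1829, and the other classes lie between 846 and 1316.

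Cardiomyocyte-like nuclei held 23.9% of all UMIs of the 35 genes in vehicle and 20.3% with BT2, and 13.1% and 13.3% of all UMIs. Acsl6 was the gene most concentrated in them, with 70.1% and 72.1% of its UMIs, followed by Cpt1b with 56.4% and 61.6%. Acsl1 had 45.5% and 44.5% there. Acsl4 had 3.25% and 4.41% and Acsl5 3.73% and 3.62%. Acsl4 was at 36.7 and 47.0 CPM in cardiomyocyte-like nuclei against 260.0 and 249 in macrophage and monocyte-like nuclei. It was at 178 and 148 CPM in dendritic-like nuclei. Fibroblast-like nuclei had 154 and 148 CPM of Acsl4 and held 15.7% and 35.1% of its UMIs. Acsl5 was at 17.7 and 14.8 against 106 and 97.7 in endothelial-like nuclei, where Cd36 also exceeded its cardiomyocyte-like level (465 and 422 against 225 and 199.9).

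Of the 34 genes with at least 20 UMIs in cardiomyocyte-like nuclei, 0 were at least 1.5-fold higher with BT2, where 8.49% of 12420 genes were, and 11 were at least 1.5-fold lower, where 11.0% were. The median ratio was 0.717 against 0.975 over all genes. Hadh had the lowest ratio, 0.489 (95% interval 0.375 to 0.633), followed by Acadl at 0.568 (0.525 to 0.614), Acot2 at 0.573 and Slc25a20 at 0.578. Acsl1 was at 272 CPM in vehicle and 175 with BT2, a ratio of 0.642 (0.588 to 0.701). Cpt1b was at 0.903 (0.794 to 1.03) and Cpt1a at 0.795 (0.688 to 0.918). The ratio was above 1 for Acsl3, Acsl4 and Etfb, and the interval lay above 1 for Acsl4 alone, at 1.28 (1.05 to 1.56). Of the 28 genes higher in tissue with BT2 at 24 h, 27 had a ratio below 1 here, 19 of them with the whole interval below 1. Over all 12420 genes, 5723 had a ratio above 1. Intervals below 1, and ratios of the other genes higher in tissue, were not counted over all genes.

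**Figure D5:**
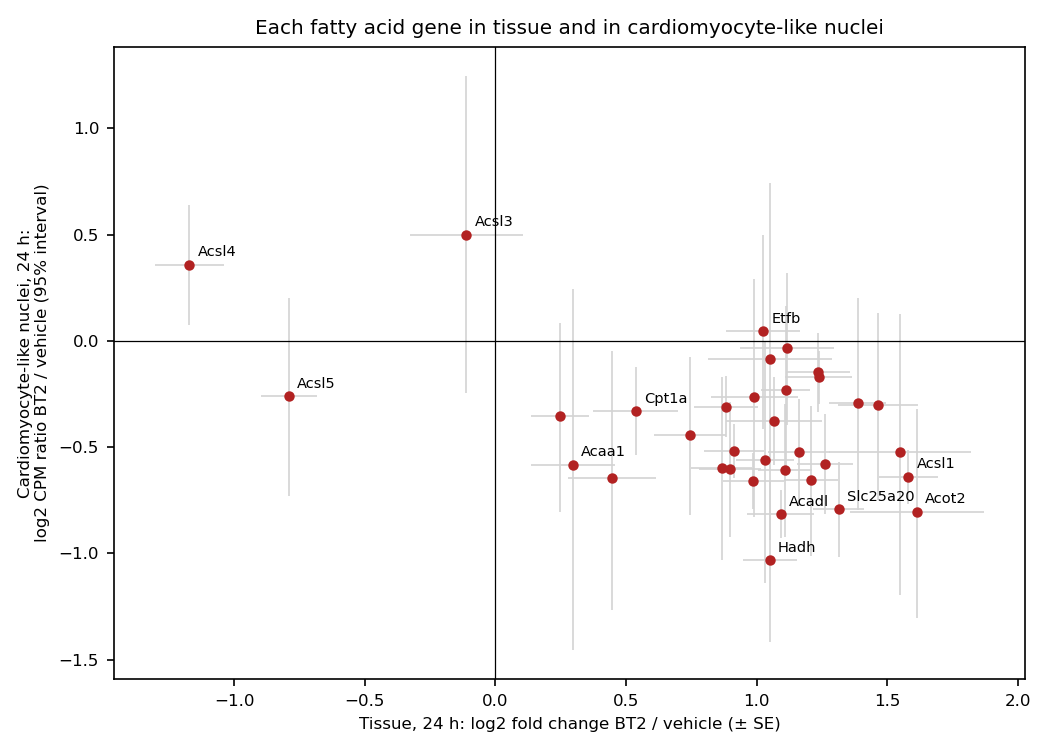
For each gene at 24 h, log2 fold change of BT2 over vehicle in tissue (horizontal, with 1 standard error) and log2 ratio of CPM in cardiomyocyte-like nuclei (vertical, with 95% interval for counting error). Most genes lie at the lower right, higher in tissue and below 0 in nuclei, such as Hadh at a ratio of 0.489, and Acsl4 lies at the upper left.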

How the data were processed

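Tissue RNA came from poly(A)-selected stranded libraries. For tissue, the deposited values are counts of reads per gene, not normalized; for nuclei, the authors deposited UMI counts of 39537 features in each barcode. Per the submitters' processing notes, Trim Galore, STAR, featureCounts and Cell Ranger (8.0.1 per the file headers) were used with Rnor_6.0; their roles, the strand setting, annotation release and intron counting are not given in the sources, so overlapping and near-identical genes are uncertain. The members, lists and tests were chosen with earlier results of these data known.

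Counts were fitted with edgeR 4.0.16 in R 4.3.3: filterByExpr, TMM factors, a robust quasi-likelihood model with 1 mean for each of the 4 groups over all 8 libraries (4 residual degrees of freedom), two-sided tests, and Benjamini-Hochberg adjustment over 15216 genes with a threshold of 0.05. SE is that of the log2 fold change. The fit was tested on simulated data. Alternatives were DESeq2 1.42.0, other scalings, no filter, a replicate block, the 4 libraries of a contrast, and leaving out each library.

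Values in full are given for 10 genes covering each role, for members called at 4 h, for members called against the majority at 24 h or over time, and for the 3 smallest p at 24 h. Of the other pathway genes, counts and the called genes with the smallest p of each list are named, except some that are not reported here.

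Barcodes were kept from 500 UMIs and 200 genes upward, with mitochondrially encoded UMIs up to 5%, and clustered with scanpy 1.11.5 (2000 variable genes without the members and the other fatty acid genes, 30 components, 15 neighbours, Leiden resolution 0.5). Of 22 clusters, 7 stayed unnamed; limits for naming were set after the clusters were seen. The doublet caller marked 1 and 0 nuclei and did not work, so doublets were not removed. Its scores still entered the naming: a cluster with a median doublet score above 0.1 stayed unnamed. UMIs were summed by class and library; ratios have exact conditional 95% intervals. Promoter windows came from the RefSeq table (GRCr8), whose coordinates are not those of the files' build.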

Additional observations from a re-analysis of the deposited data

Results flagged for a closer look

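The effect of BT2 in tissue differed between 4 h and 24 h by a test of the difference itself (edgeR quasi-likelihood test, Benjamini-Hochberg adjusted p from 0.0122 to 0.0430) for 22 of the 34 genes, each with a larger log2 effect at 24 h. Of all genes tested, 4.72% were called higher for this difference. In uptake, activation and the carnitine shuttle the effect was larger for Cd36 by 0.98, Acsl1 by 1.43, Cpt1b by 1.14, Cpt2 by 1.21, Slc25a20 by 1.11, Crat by 0.86 and Mlycd by 0.72. Among the dehydrogenases it was larger for Acadvl by 0.89, Acadl by 0.90, Acadm by 1.22 and Acads by 0.98. In the core of the spiral and the isomerases it was larger for Hadha by 0.98, Hadhb by 1.05, Hadh by 0.83, Acaa2 by 1.01, Acat1 by 1.10, Eci1 by 1.38 and Eci2 by 1.09. For electron transfer and the thioesterase it was larger for Etfa by 0.84, Etfb by 1.04, Etfdh by 1.15 and Acot2 by 1.76. None of the 22 was called in all 8 fits that left out 1 library, and 0 were left without vehicle replicate 1 or 2 at 24 h. Calls over all genes became fewer in those fits too. With scaling to cardiomyocyte markers, 1 member was higher and 6 were lower for the difference, where 112 of all 15216 genes were higher and 7273 lower. With 2 libraries per group, single libraries could not be compared with their group for standing apart.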

How the results depend on the processing

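Every direction and count of calls below refers to tissue unless nuclei are named. Scaling to cardiomyocyte markers gave 2 higher and 1 lower at 4 h, 4 higher and 5 lower at 24 h, 1 higher and 6 lower for the difference of effects, 17 higher and 0 lower over time in vehicle, and 19 higher and 0 lower over time in BT2. Of all 15216 genes it called 373 higher and 920 lower at 4 h, and 7847 higher and 288 lower over time in BT2. By construction it moved the median of all genes, to -0.92 at 24 h, 1.54 over time in vehicle and 0.66 in BT2. At 24 h it turned 8 genes, Cpt1a to -0.36, Slc22a5 to -0.18, Crat to -0.057, Acadvl to -0.018, Etfa to -0.041, Acad9 to -0.67, Acaa1 to -0.62 and Decr2 to -0.47. Among genes given in full it turned Mlycd to -0.16 for the difference, Acsl1 to 0.24 over time in BT2 and, over time in vehicle, Cd36 to 0.61, Cpt1b to 0.20, Slc25a20 to 0.15, Acadm to 0.11, Hadha to 0.43, Etfdh to 0.083, Acsl4 to 1.09, Mlycd to 0.81 and Cpt2 to 0.44. Library totals alone gave 5 higher and 22 lower over time in vehicle (Acsl4 at 0.024), and 2 higher and 3 lower in BT2; they moved the median of all genes to 0.48 and 0.27 in these 2 contrasts, to 0.13 at 4 h and to -0.23 for the difference, and made 7052 genes higher and 1699 lower over time in vehicle against 3545 and 3617. Over time in BT2, library totals alone called 3702 of all genes higher and 705 lower, against 1782 and 1766. DESeq2 gave 1 lower for the difference, where 581 of 13151 genes were lower. Over time in BT2 it gave 10 lower, where 1993 of 14626 genes were. No filter gave 1 lower for the difference, where 730 of 22074 genes were. With only the 4 libraries of the contrast, 2 were higher and 1 lower at 4 h, where 210 and 411 of 13958 genes were. The titles' sample numbers are not stated to pair libraries, and deviations of equal-numbered libraries correlated at -0.041 to 0.109. With the replicate block, 2 genes were higher at 4 h in place of 4, and 883 of all genes in place of 1015. Leaving out 1 library gave 1 to 3 higher and 0 to 3 lower at 4 h, 26 to 28 higher and 2 lower at 24 h, 0 to 22 higher for the difference, 1 to 2 higher and 26 to 27 lower over time in vehicle, and 2 to 9 lower in BT2; where this left 1 library in a group, that library was assumed to vary like the others. The cause of changes other than those built into a setting was not tested. In nuclei, the summed ratio of 0.714 was 0.666 at Leiden resolution 1.0 in the cluster of 297 vehicle and 374 BT2 nuclei that kept the name, against 0.846 and 0.779 in the other 2 clusters that the 806 and 806 nuclei split into, 0.763 as a mean over nuclei, 0.829 for nuclei under 5000 UMIs and 0.680 for those of 5000 or more (the last 2 added after the data were seen); the mean over nuclei turned Cd36 to 1.07 and Acsl4 to 0.909. The cluster at 0.846 had a median doublet score of 0.144 in vehicle and 0.088 with BT2. Its cardiomyocyte markers summed to 48263 and 105924 CPM. The part of these differences in the summed ratio of 0.714 was not tested. Depth limits Ehhadh, Acsl3 and Acaa1 most in nuclei, with 19 to 39 UMIs per library.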
